A study of Mus musculus with 4 samples.

Results

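The 10 genes described here are known for their high expression in brown fat, the tissue that burns fuel to make heat. They were chosen by name (Ucp1, Cidea, Elovl3, Otop1, Adrb3, Acvr1c, Slc36a2, Cox8b, Dio2 and Ppargc1a), and all 10 were found among the 32285 genes of each deposited count table. The tables came from Visium slides, on which RNA from a cryosection is captured in a grid of barcoded spots, each a small region that can hold several cells, and counted as unique molecular identifiers (UMIs). Levels are given as UMIs per 1000000 UMIs of the section, spot class or spot (CPM). C57BL/6J mice that had inhaled vape aerosol, labelled Vaped (V), were set against Non-Vaped (NV) mice kept without it, with 1 male and 1 female section in each group, from tissue labelled as upper pulmonary branches. According to the study's methods the V mice were exposed, as whole animals, to aerosol of a peach-flavoured liquid from JUUL pens. With 1 section per sex and group, a difference between sections could be that of a mouse, of a plane of section or of an exposure.

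The sections held 473 to 2053 spots and 6957392 to 34308556 UMIs, with a median of 6259 to 11355 UMIs per spot, and the V female section was the largest and the deepest. The 4 sections did not hold the same tissues. The summed level of 6 heart muscle markers, which also mark the muscle sleeve of pulmonary veins, was 6573 CPM in the NV male section, 7015 for the NV female and 3673 for the V female, but 18.2 for the V male. The summed level of 6 adipocyte markers was 842, 6434, 6321 and 89.98 CPM in the same order, and none of these markers was at 0 in any section. Tissue captured and exposure therefore cannot be told apart in a comparison of whole sections, nor can fewer cells of a type and less RNA per cell.

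Brown adipocytes are packed with mitochondria and small lipid droplets. Noradrenaline from sympathetic nerves acts on their adrenergic receptors, lipids are broken down, and the uncoupling protein in the inner mitochondrial membrane lets protons flow back without making ATP, so that the energy is released as heat. Brown fat lies between the shoulder blades, along the aorta and in the mediastinum beside the airways and heart, and several of its mitochondrial genes are also used by heart muscle.

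The stretches of DNA just before the RefSeq starts of Ucp1, Dio2 and Cox8b are shown because these genes were high together in the same spots of the V female section (described further on) while only Cox8b was also high in heart muscle. They are 250 bases each, 5′ to 3′ on the strand of the gene, from RefSeq on GRCm38.p6: chr8:83290098-83290347 on the plus strand for Ucp1, chr12:90739039-90739288 on the minus strand for Dio2 and chr7:140900447-140900696 on the minus strand for Cox8b. Capitals mark matches on either strand to the cAMP response element TGACGTCA, bound by factors that act downstream of adrenergic receptors, to the nuclear receptor core site AGGTCA, to the direct repeat of this site that PPAR receptors bind, to the site TCAAGGTCA of estrogen-related receptors or to the TATA box TATAAA, and the core site is contained in the direct repeat and in the estrogen-related receptor site.
Ucp1: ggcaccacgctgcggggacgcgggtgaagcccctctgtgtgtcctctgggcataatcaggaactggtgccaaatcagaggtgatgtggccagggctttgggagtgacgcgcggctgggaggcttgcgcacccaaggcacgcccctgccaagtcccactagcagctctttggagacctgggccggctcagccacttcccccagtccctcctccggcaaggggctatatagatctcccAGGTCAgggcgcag
Dio2: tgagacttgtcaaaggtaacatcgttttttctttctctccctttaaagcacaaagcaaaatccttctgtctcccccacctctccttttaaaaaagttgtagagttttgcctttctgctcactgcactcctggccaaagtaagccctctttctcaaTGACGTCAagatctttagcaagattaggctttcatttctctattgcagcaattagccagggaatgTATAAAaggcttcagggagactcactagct
Cox8b: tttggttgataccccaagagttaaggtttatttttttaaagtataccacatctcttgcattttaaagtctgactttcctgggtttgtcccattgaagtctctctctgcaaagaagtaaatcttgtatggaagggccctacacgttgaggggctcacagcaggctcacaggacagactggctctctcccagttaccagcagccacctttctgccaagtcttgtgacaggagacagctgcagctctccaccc
The starts are those of RefSeq, which for Cox8b is the start of the gene coordinates given further on (GENCODE), but lies 4 bases upstream of it for Ucp1 and 600 bases upstream for Dio2. Entries were matched for 6 of the 10 genes (7 entries, 2 of them for Acvr1c), and Cidea, Elovl3, Adrb3 and Slc36a2 were not searched. The Ucp1 stretch held 1 core site, 14 to 9 bases before the start, a motif that was also present in 4607 of 32851 promoter stretches of this length (14.02%). The Dio2 stretch held a cAMP response element 95 to 88 bases before the start, where 508 of the 32851 stretches (1.55%) held this motif, and a TATA box 30 to 25 bases before the start (12.4% of stretches). No motif of the 5 was found in the stretches of Cox8b, Otop1, Ppargc1a and Acvr1c. The direct repeat, present in 11 of all stretches (0.0335%), and the estrogen-related receptor site, present in 127 (0.387%), were in none of the 7 entries. A match is a stretch of letters and not a bound site.

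Ucp1, the uncoupling protein itself (chromosome 8, 83290352 to 83298452 on GRCm38), was close to absent from 3 sections and abundant in the fourth. The NV male had 1 UMI, the NV female 7, the V male 4 and the V female 29484, or 0.107, 1.01, 0.337 and 859 CPM of the section. Values are given in this order of sections from here on. In the V female it was found in 1756 of 2053 spots (85.5%), against 1.27% of spots or fewer in each of the other sections. The level of the V female was 854 times that of the NV female (95% counting interval 415 to 2125). The 12 UMIs of the other 3 sections lay in 11 spots, 5 of whose barcodes were also used by the V female section, 1 of them there in a spot rich in Ucp1. The barcode set of Visium slides is fixed, and pairs of sections shared 277 to 1167 barcodes. Intervals here and below, except those of shares of spots, are exact 95% limits of counting error only. None of them includes differences between mice.

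The genes whose protein or product is most bound up with the brown adipocyte followed, at lower levels in the NV sections. Cidea, a lipid droplet protein, had 70, 248, 2 and 19026 UMIs, that is 7.46, 35.6, 0.168 and 555 CPM. Elovl3 (chromosome 19, 46131897 to 46135694), which elongates fatty acids and is induced by cold, had 0, 6, 0 and 1990 UMIs, and the V female level of 58.0 CPM was 67.3 times that of the NV female (30.8 to 183). Otop1 (chromosome 5, 38275972 to 38304217), a proton channel, had 8, 21, 0 and 933 UMIs. For these 3 genes the V female was far above the other sections and the V male was the lowest or at 0. The interval of a count of 0 reaches up to 0.310 CPM in the V male and up to 0.393 in the NV male.

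The receptor and transporter genes differed much less between the female sections. Adrb3 (chromosome 8, 27225776 to 27250616), the adrenergic receptor through which noradrenaline acts on adipocytes, was at 13.3, 59.5, 9.09 and 55.2 CPM. Acvr1c (chromosome 2, 58267453 to 58357895), a receptor for activin-type ligands in adipocytes, was at 3.62, 19.1, 0.0842 and 15.1 CPM. Slc36a2 (chromosome 11, 55158470 to 55185077), an amino acid transporter of the brown adipocyte surface, was at 58.7, 117, 34.8 and 123 CPM. For all 3 genes the NV female and V female were the 2 highest sections and lay close to each other, at a V over NV ratio of 0.928 for Adrb3 (0.834 to 1.03), 0.790 for Acvr1c (0.652 to 0.963) and 1.05 for Slc36a2 (0.971 to 1.13). The intervals of Adrb3 and Slc36a2 include no difference. In the V male, the section lowest in adipocyte markers, Slc36a2 was still found in 20.96% of spots and Adrb3 in 6.26%. These 2 genes were thus also present at low levels where little fat RNA was captured, and the source of those UMIs was not tested.

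The remaining 3 genes serve mitochondria and hormone action and are also used outside brown fat. Cox8b (chromosome 7, 140898945 to 140900446), a subunit of cytochrome c oxidase in brown fat and striated muscle, was at 390, 621, 8.33 and 1308 CPM. Dio2 (chromosome 12, 90724552 to 90738438), the deiodinase that makes active thyroid hormone within the cell, was at 1.38, 5.17, 0 and 16.99 CPM. Ppargc1a (chromosome 5, 51454250 to 51567726), a coactivator that drives the making of mitochondria, was at 9.27, 10.6, 1.85 and 10.1 CPM. Of the 10 genes, Ppargc1a was the one whose NV male, NV female and V female levels were nearest to each other, and the intervals of these 3 sections overlapped (7.42 to 11.4, 8.35 to 13.4 and 9.02 to 11.2). These counts are per gene and not per length, so levels are compared between sections and not between genes.

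**Figure D1:**
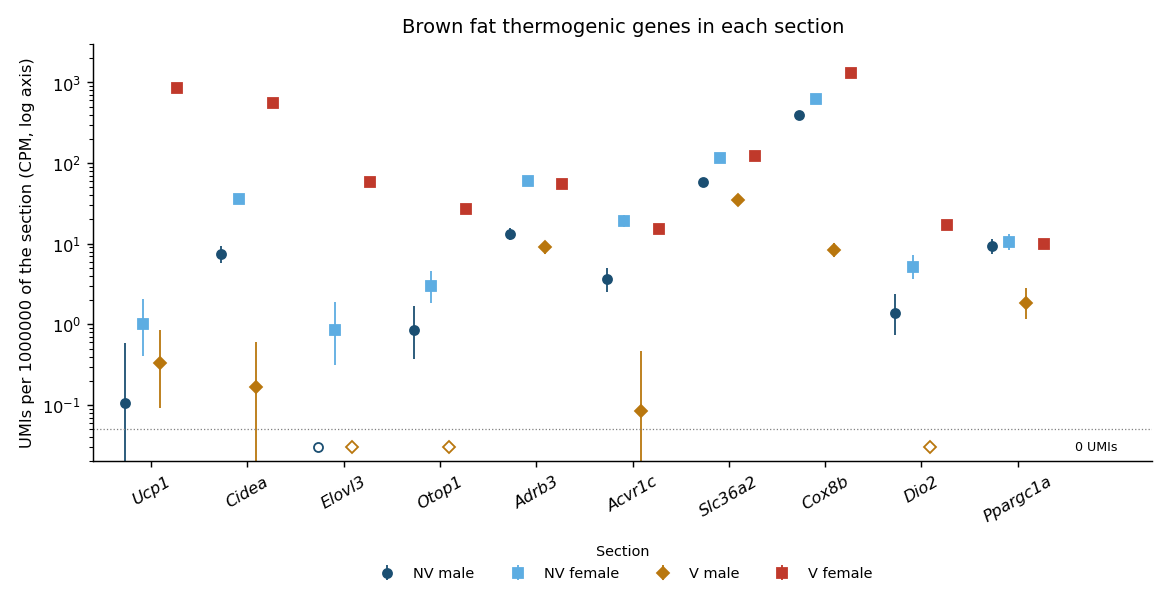
Level of each of the 10 genes in the 4 sections, as CPM of the section on a log axis, with 95% counting intervals as bars; open symbols below the dotted line are sections with 0 UMIs. The V female stands far above the others for Ucp1 (859 CPM), Cidea (555) and Elovl3 (58.0), while the female sections lie together for Adrb3, Acvr1c and Slc36a2.

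Across groups, V against NV asks whether vaping moved these genes, and no member was called. The UMIs of each section were summed and tested with edgeR's quasi-likelihood test, where a call needed an adjusted p (Benjamini-Hochberg) below 0.05 and an absolute log2 fold change above 0.25. Of 14570 genes tested, 0 were called (0%), 248 had an unadjusted p under 0.05, and DESeq2's Wald test called 8, none of them among the 10 genes. Elovl3 did not pass the filter on low counts, and the other 9 had adjusted p-values of 0.9997 in edgeR. The log2 fold change of Ucp1 was 9.76 (SE 3.88, unadjusted p = 0.0626), from a mean of 0.556 ± 0.636 CPM in NV to 430 ± 607 in V (SD, n = 2 each). That of Cidea was 3.77 (SE 2.85), of Otop1 2.94 (SE 2.31), of Dio2 1.49 (SE 2.11) and of Cox8b 0.46 (SE 1.97). Adrb3 (-0.11, SE 1.16), Slc36a2 (-0.12, SE 0.78), Acvr1c (-0.47, SE 1.86) and Ppargc1a (-0.67, SE 0.89) lay below 0. The SD within V was larger than the mean for 8 of the 10 genes (not for Slc36a2 and Ppargc1a), and the V male and the V female were the lowest and the highest section for Cidea, Slc36a2, Otop1, Cox8b and Dio2.

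The fold changes depended on which V section was kept. Without the V male, the log2 fold change was 10.80 for Ucp1 and 7.33 for Elovl3, both higher in V. Without the V female, it was -7.01 for Cidea, -6.06 for Cox8b and -2.56 for Ppargc1a, all lower in V. In those fits the lone V section is assumed to vary as the NV sections do, so no calls are read from them. With spots rich in Ucp1 or in heart muscle left out of every section, 0 of 14416 genes were called by edgeR (0%, with 294 at an unadjusted p under 0.05 and 6 called by DESeq2), and the log2 fold change was 8.17 (SE 3.27) for Ucp1, 2.59 (SE 2.41) for Cidea and 0.33 (SE 1.71) for Cox8b. In that fit the log2 fold change of Ucp1 was 9.18 without the V male, and that of Cox8b was -5.01 without the V female.

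Within the V female section the 10 genes were at higher levels in spots rich in Ucp1 than in the rest, to differing degrees, and Ucp1 itself chose these spots. Spots were called rich in Ucp1 where they held at least 3 Ucp1 UMIs at 1000 or more CPM of the spot. This rule took 145 of the 2053 spots of the V female section and 0 spots of each of the other sections, so that nothing could be compared between V and NV in such spots, and what follows describes 1 section with no test. The lowest levels of Ucp1 inside the rule were 1010 and 1017 CPM and the highest outside it were 4556 and 1721, in spots of at most 2 Ucp1 UMIs, of which 14 reached the level. The levels had no gap at the threshold, with 263 spots from 500 to 1000 and 81 from 1000 to 2000 CPM. Of the 145 spots, 5 were also rich in heart muscle and were kept apart from both classes in the comparisons between classes.

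The 140 remaining spots held Ucp1 at 3424 CPM, against 321 in the 1794 spots of the rest of the section, and this difference is what chose them. Cidea was at 1976 CPM against 261, a fold of 7.58 (7.35 to 7.82). Elovl3 was at 207 against 27.4, also 7.58-fold (6.89 to 8.35), and Otop1 at 95.5 against 13.1, 7.30-fold (6.35 to 8.40). Cox8b was at 3914 CPM against 633, 6.19-fold (6.06 to 6.31), and Dio2 at 53.0 against 9.51, 5.58-fold (4.69 to 6.64). The receptor and transporter genes were less concentrated, at 2.84-fold for Adrb3 (2.58 to 3.12), 2.85-fold for Slc36a2 (2.67 to 3.03) and 2.34-fold for Acvr1c (1.93 to 2.83). Ppargc1a, with 92 UMIs in these spots, was 2.13-fold higher (1.64 to 2.76).

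All 9 genes other than Ucp1 were thus at least 2-fold higher in the Ucp1-rich spots, where 698 of 13767 genes with at least 50 UMIs were (5.07%). Elovl3, Cidea and Otop1 ranked 11, 12 and 13 of the 13767 genes by fold, Cox8b 19 and Dio2 29, while Acvr1c ranked 504 and Ppargc1a 610. Genes were compared per total UMIs, and the Ucp1-rich spots were deep (median 35426 UMIs against 9880 in the rest). By this scale 4511 genes (32.8%) were at least 2-fold lower and the median gene stood at 0.599 of its level in the rest, whereas with TMM factors 1519 genes were 2-fold higher and 1042 lower and the folds of the 9 genes ran from 3.35 to 11.9.

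**Figure D2:**
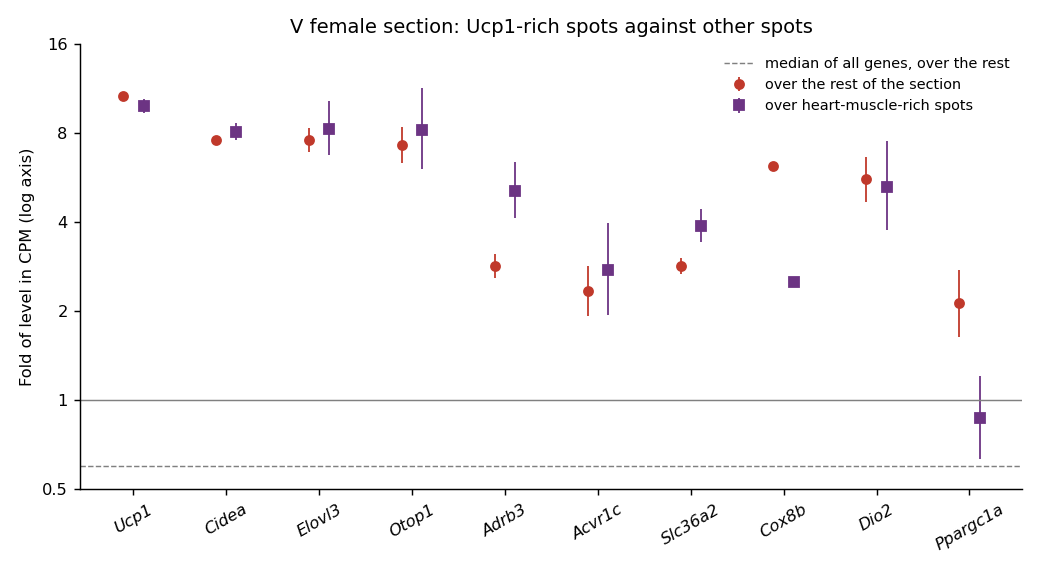
Fold of the level in CPM in the 140 Ucp1-rich spots of the V female section over the 1794 spots of the rest (circles) and over the 114 heart-muscle-rich spots (squares), on a log axis with 95% counting intervals; the dashed line is the median of all genes over the rest (0.599). Ucp1 chose the spots; Ppargc1a is the gene that was not higher than in heart muscle (0.870).

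The 145 spots made up 7.06% of the spots and 17.6% of the UMIs of the V female section. They held 68.9% of its Ucp1 UMIs, 61.6% of those of Cidea, 61.6% of Elovl3 and 61.0% of Otop1. They held 53.5% of the Dio2 and 52.2% of the Cox8b UMIs, but 38.8% for Adrb3, 38.2% for Slc36a2, 33.6% for Acvr1c and 27.5% for Ppargc1a. The shares of the last 4 genes thus lay nearer to the 17.6% of all UMIs, which the plot of cumulative shares shows over the whole range of spots.

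**Figure D3:**
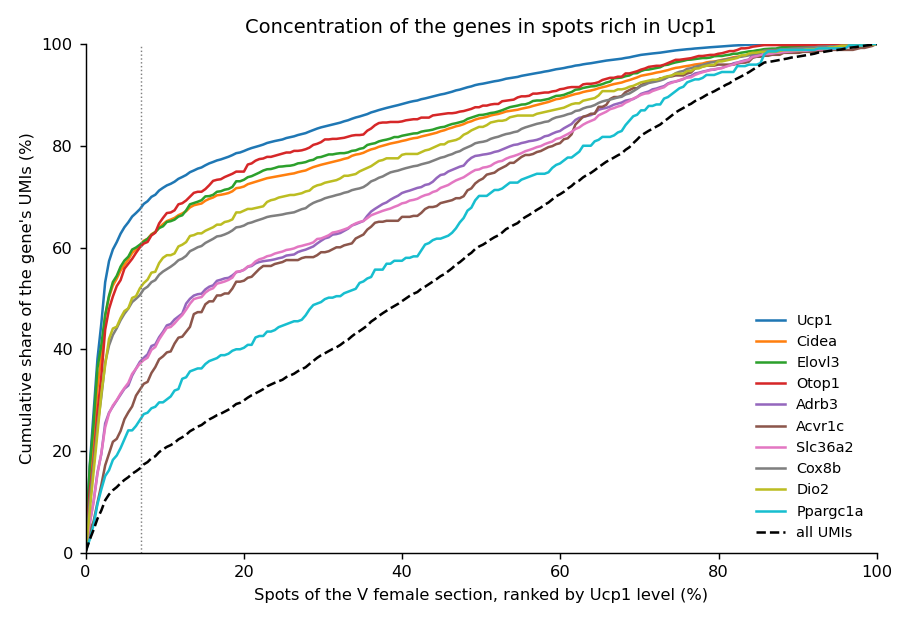
Cumulative share of the UMIs of each gene (percent) over the spots of the V female section ranked from the highest to the lowest level of Ucp1 (percent of spots), with all UMIs as a dashed line and the 145 Ucp1-rich spots as a dotted line. The curves of Cidea, Elovl3 and Otop1 run close to that of Ucp1, those of Dio2 and Cox8b below them, and that of Ppargc1a nearest to all UMIs.

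Single Ucp1-rich spots varied widely. Ucp1 ran from 1010 to 6023 CPM of the spot with a median of 2095, Cidea from 0 to 3319 with a median of 1479 and Cox8b from 0 to 5935 with a median of 3298. Elovl3 reached 650 with a median of 129 and was at 0 in some of these spots.

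Outside those spots Ucp1 was found across the V female section at lower levels that varied from spot to spot. It was at 321 CPM in the rest of the section (0 to 4556 CPM of the spot, median 260) and at 348 in the 114 heart-muscle-rich spots (25.04 to 976, median 289). In the 436 spots of the rest without any UMI of Adipoq, a hormone gene of adipocytes, Ucp1 was at 250 CPM and Cidea at 212. In the 376 spots with at least 5 Adipoq UMIs they were at 388 and 330. The former spots had a median of 4286 UMIs and the latter of 26646.5, so a spot without Adipoq UMIs need not be free of fat. With every spot thinned to 3000 UMIs, Ucp1 was detected in 56.4% of the rest (53.9 to 58.9, 1574 spots kept), in 58.8% of heart-muscle-rich spots (49.2 to 67.9, 114 spots) and in 97.8% of Ucp1-rich spots (93.7 to 99.5, 136 spots), and unthinned in 83.4% of the rest and in all spots of the other classes. In the V male the thinned share was 0.0734% of 1363 spots (unthinned 0.256%). The intervals of the shares in the rest and in heart-muscle-rich spots overlapped. The heart-muscle-rich spots were not free of fat, with adipocyte markers at a sum of 3311 CPM against 4286 in the rest. A share at this level is therefore not assigned to a cell type. The level of Ucp1 in the rest was higher in the spots with at least 5 Adipoq UMIs, which were also deeper. The source of the Ucp1 UMIs outside the Ucp1-rich spots was not tested.

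The ratios between the genes were close to constant over the classes of spots of the V female section for some genes and not for others. For 100 Cidea UMIs there were 10.5 of Elovl3 in the Ucp1-rich spots, 10.2 in heart-muscle-rich spots and 10.5 in the rest, and 4.83, 4.75 and 5.02 of Otop1. For Slc36a2 the ratio was 13.8, 28.6 and 36.7, for Adrb3 6.28, 9.93 and 16.8 and for Cox8b 198, 638 and 243. Elovl3, Otop1 and Cidea therefore stayed in nearly the same proportions, while Slc36a2, Adrb3 and Cox8b had more UMIs outside the Ucp1-rich spots than those proportions give. Ucp1, which chose the spots, had 173, 142 and 123 UMIs for 100 of Cidea.

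Other genes of the brown fat programme, in lists by pathway, were described in the same spots, to be read against the 5.07% of all genes that were at least 2-fold higher and the 32.8% lower (11% and 7.57% with TMM factors). Of 16 mitochondrial genes high in brown fat, 15 were at least 2-fold higher in the Ucp1-rich spots and 0 lower (median fold 2.96, against 0.599 for all genes), among them Cox7a1 at 5.69-fold, another cytochrome c oxidase subunit, and Cycs, cytochrome c, at 5.44-fold. Cox6a2, the oxidase subunit of heart and skeletal muscle, was the exception at 0.892. Of 22 genes of fuel supply, 18 were at least 2-fold higher and 0 lower (median 3.90), with Pdk4, which spares glucose, at 5.90-fold and Cpt1b, which takes fatty acids into mitochondria, at 5.32-fold.

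Of 16 measured regulators of brown fat, 7 were at least 2-fold higher and 1 lower (median 1.77). Ppara, a nuclear receptor for fatty acids, was at 7.03-fold, and Nrip1, a corepressor, was the lower one at 0.499, near the median of all genes. With TMM factors 10 of these regulators were higher and 0 lower. Of 16 genes of adrenergic signalling and lipolysis, 9 were higher and 3 lower (median 2.20), with the lipid droplet protein Plin5 at 5.65-fold and the receptor Adrb1 at 0.470, and with TMM factors 12 were higher and 1 lower. Ucp3, a relative of Ucp1, was at 4.76-fold and Ucp2, used by immune cells, at 0.407, which was not 2-fold lower with TMM factors. Of 6 secreted factors, 4 were higher and 1 lower (median 2.47), with the growth factor Nrg4 at 3.75-fold. Of 10 genes of heat production without Ucp1, 2 were higher and 2 lower (median 0.696), and 0 lower with TMM factors. Of 7 genes of white adipocytes, 0 were higher and 2 lower (median 0.944), with Lep, the satiety hormone, at 1.78-fold, and with TMM factors 2 were higher and 2 lower.

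Markers of other cell types were read in the same spots. All 6 adipocyte markers were at least 2-fold higher (2.52 to 5.82), and all 6 markers of lung parenchyma were lower (0.214 to 0.302). The 6 heart muscle markers (0.325 to 0.940, 0 higher) also chose the heart-muscle-rich spots kept out of both classes, so their result is limited by that choice. Of 8 heart muscle genes not used in that choice, 0 were at least 2-fold higher and 0 lower (0.843 to 1.02). The summed level of parenchyma markers was 6237 CPM in the Ucp1-rich spots and 28249 in the rest, and that of the adipocyte markers 16795 and 4286. Sympathetic nerve markers, of which 4 were measured, had a median fold of 0.352 (3 at least 2-fold lower), and of 0.553 with TMM factors (2 lower). Over whole sections this list summed to 70.8, 75.9, 120 and 44.7 CPM, highest in the V male, so it is a weak measure of nerves in fat. The part of these cell types in the folds of the 10 genes was not tested.

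Of the 10 genes, Cox8b and Ppargc1a were also high in heart-muscle-rich spots. Spots were called rich in heart muscle where 6 marker genes summed to at least 10000 CPM, and the NV male had 143 such spots, the NV female 46, the V male 0 and the V female 114, without the 5 also rich in Ucp1. Cox8b was at 1244, 1531 and 1562 CPM in the heart-muscle-rich spots of the 3 sections that had them (NV male, NV female, V female), and at 169, 353 and 633 in the rest. Ppargc1a was at 24.8, 25.3 and 18.1 in the heart-muscle-rich spots and at 5.23, 6.33 and 7.38 in the rest. In both genes each of the 3 sections was higher in heart muscle and the classes did not overlap.

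The sums per class and section went into edgeR's quasi-likelihood test with the section as a block, to which 3 sections contribute. Of 14949 genes, 3008 were called higher in heart muscle (20.1%) and 2634 lower (17.6%), and with scaling to total UMIs alone the split was 1508 higher and 7941 lower and the median gene moved from a log2 fold change of -0.05 to -0.57. Cox8b (2.62, SE 0.21, adjusted p = 1.4e-09) and Ppargc1a (2.26, SE 0.21, adjusted p = 2.3e-08) were called higher in heart muscle. These are 2 of the 9 genes other than Ucp1, a share near the 20.1% of all genes, so the count does not set the 9 genes apart. Adrb3 was called lower (-0.42, SE 0.15, adjusted p = 0.0306), but not without the NV female (adjusted p = 0.252), without the V female (adjusted p = 0.115), by DESeq2 (adjusted p = 0.264) or without the block (adjusted p = 0.924). Cidea (0.50, SE 0.22, adjusted p = 0.0813), Elovl3 (0.36, adjusted p = 0.184), Otop1 (0.39, adjusted p = 0.281), Dio2 (0.49, adjusted p = 0.201), Slc36a2 (-0.17, adjusted p = 0.370) and Acvr1c (-0.06, adjusted p = 0.901) were not called. Ucp1 helped to set both classes and was not tested. Without the section block Cox8b was not called (2.84, adjusted p = 0.0699), where its level in the rest of the sections, V male included, ran from 8.33 to 633 CPM.

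**Figure D4:**
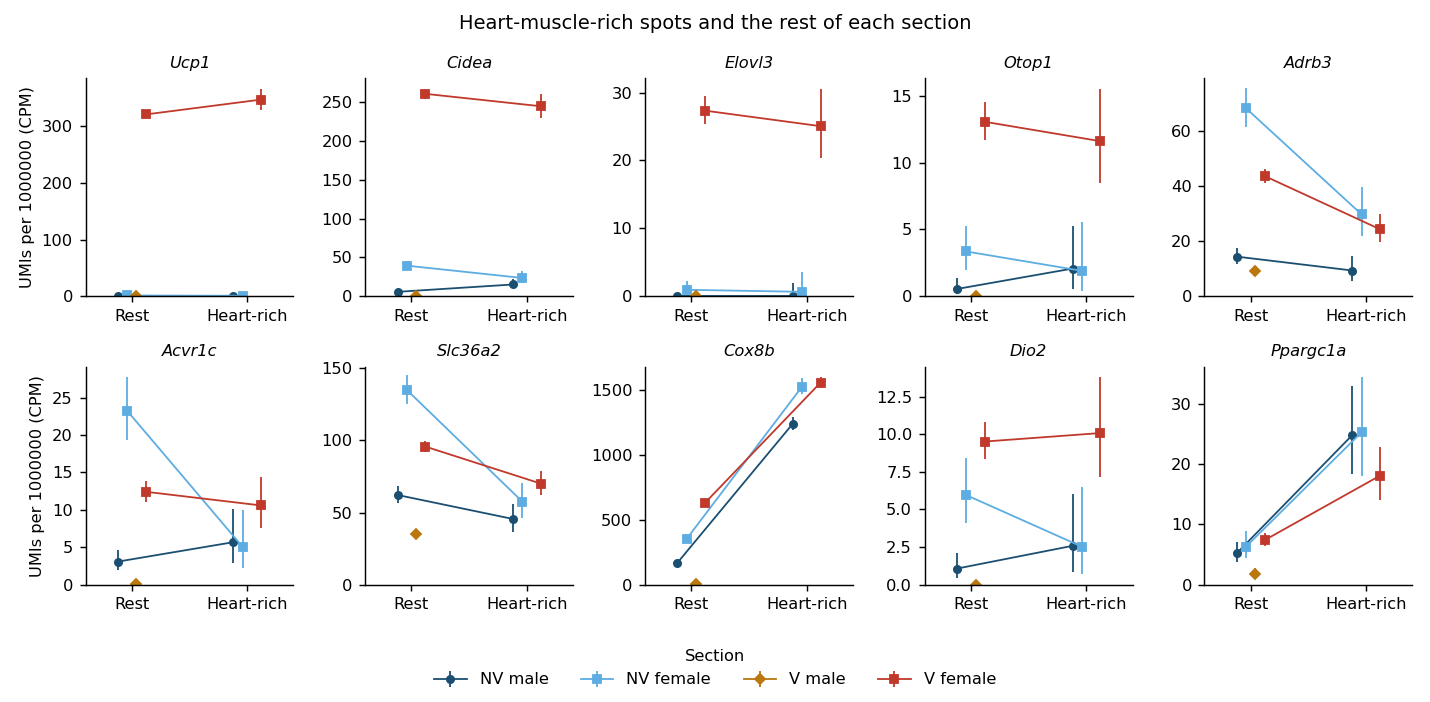
CPM of each of the 10 genes in the rest of a section and in its heart-muscle-rich spots, with 95% counting intervals, for the 4 sections (the V male had no heart-muscle-rich spot). Each panel has its own scale from 0; Cox8b and Ppargc1a are higher in the heart-muscle-rich spots of all 3 sections that have them, and Ucp1, Cidea and Elovl3 lie by section (Ucp1 at 321 and 348 in the V female).

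The lists of related genes split in the same test, to be read against the 20.1% of all genes called higher and the 17.6% called lower. Of the 16 mitochondrial genes 14 were called higher in heart muscle and 0 lower (median log2 fold change 1.86), with Cox7a1 at 3.35 (SE 0.17) and Cycs at 2.47 (SE 0.16). Of the 22 genes of fuel supply 14 were called higher and 2 lower (median 0.94), with Cpt1b at 2.96 (SE 0.17) and Pdk4 at 2.25 (SE 0.13). Of the 11 genes of heat production without Ucp1, 9 were called higher and 0 lower (median 1.14), among them Ckmt2, a creatine kinase of muscle mitochondria, at 3.44 (SE 0.13) and Atp2a2, the calcium pump, at 3.10 (SE 0.14), and Ryr2 of this list also served to choose the spots. None of the 6 adipocyte markers was called (median 0.04). Of 8 heart muscle genes that were not used to choose the spots, all 8 were called higher (median 3.39).

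Set directly against heart muscle within the V female section, 8 of the 9 genes were at least 2-fold higher in the Ucp1-rich spots, where 591 of 10814 genes were (5.47%, and 7.66% at least 2-fold lower; 841 and 603 genes with TMM factors). The folds were 8.28 for Elovl3 (6.73 to 10.3), 8.21 for Otop1 (6.06 to 11.4), 8.08 for Cidea (7.56 to 8.64), 5.26 for Dio2 (3.77 to 7.55), 5.11 for Adrb3 (4.12 to 6.40), 3.89 for Slc36a2 (3.42 to 4.44), 2.75 for Acvr1c (1.94 to 3.96) and 2.51 for Cox8b (2.44 to 2.58). Ppargc1a had 92 UMIs in the Ucp1-rich and 70 in the heart-muscle-rich spots, a ratio of 0.870 with an interval of 0.631 to 1.21, which includes no difference. With Ucp1-rich spots taken from 300 CPM, 6 of the 9 genes were at least 2-fold higher than in heart muscle, where 1354 of 12857 genes were. Cox8b was then at 1.28, Acvr1c at 1.93 and Ppargc1a at 0.536.

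Since fat was also present in the NV sections, the genes were read per adipocyte RNA. This comparison was added after the data were seen. Spots were called adipocyte-rich where Adipoq, Plin1, Cidec, Lipe and Pck1 summed to at least 1000 CPM with at least 3 UMIs, which used none of the 10 genes. The NV male had 64 such spots, the NV female 164, the V male 0 and the V female 436, of which 133 were Ucp1-rich. These spots held 449, 4052 and 11112 UMIs of Adipoq, the depth behind the ratios.

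Adipocyte-rich spots of the NV sections had the adipocyte receptor genes but next to no Ucp1. For 100 Adipoq UMIs there were 0 Ucp1 UMIs in the NV male (up to 0.825), 0.148 in the NV female (0.0543 to 0.323) and 209 in the V female (204 to 214). Cidea was at 6.01, 5.11 and 128 for 100 Adipoq UMIs, Elovl3 at 0, 0.0987 and 13.8 and Otop1 at 0.445, 0.370 and 6.61. Acvr1c was at 3.34 (1.85 to 5.57), 2.67 (2.18 to 3.23) and 3.28 (2.95 to 3.65), with intervals that overlap. Adrb3 was at 5.79 (3.74 to 8.60), 7.72 (6.86 to 8.67) and 11.4 (10.7 to 12.0), and Slc36a2 at 13.8, 13.1 and 24.4. Both genes were also found in the V male, which had no adipocyte-rich spot, and such levels were not subtracted from these ratios. Dio2 was at 0.668, 0.691 and 3.80, Cox8b at 62.4, 45.9 and 272 and Ppargc1a at 1.11, 0.543 and 1.53.

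The 303 adipocyte-rich spots of the V female that were not rich in Ucp1 lay between. For 100 Adipoq UMIs they had 53.7 of Ucp1, 46.1 of Cidea, 5.54 of Elovl3 and 2.93 of Otop1, against 372, 215, 22.5 and 10.5 in the 133 Ucp1-rich ones. The spots were divided by Ucp1 itself, so its own difference is given by the choice. In the 303 spots Ucp1 was at 499 CPM, and it was also at 271 in the 1515 spots of the rest that were not adipocyte-rich, a level that was not subtracted from these ratios. Acvr1c was at 3.37 in the former (2.90 to 3.89) and 3.20 in the latter (2.73 to 3.72), so it followed Adipoq and not Ucp1. Retn, a hormone gene of white adipocytes, was at 90.9, 127, 155 and 96.1 for 100 Adipoq UMIs in the NV male, the NV female and the V female spots without and with Ucp1. Heart muscle markers summed to 7880 CPM in the adipocyte-rich spots of the NV male, 4962 in those of the NV female and 2967 in those of the V female, and Cox8b and Ppargc1a, the genes shared with heart muscle, are read with this in mind; the part of heart muscle in their ratios was not tested.

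**Figure D5:**
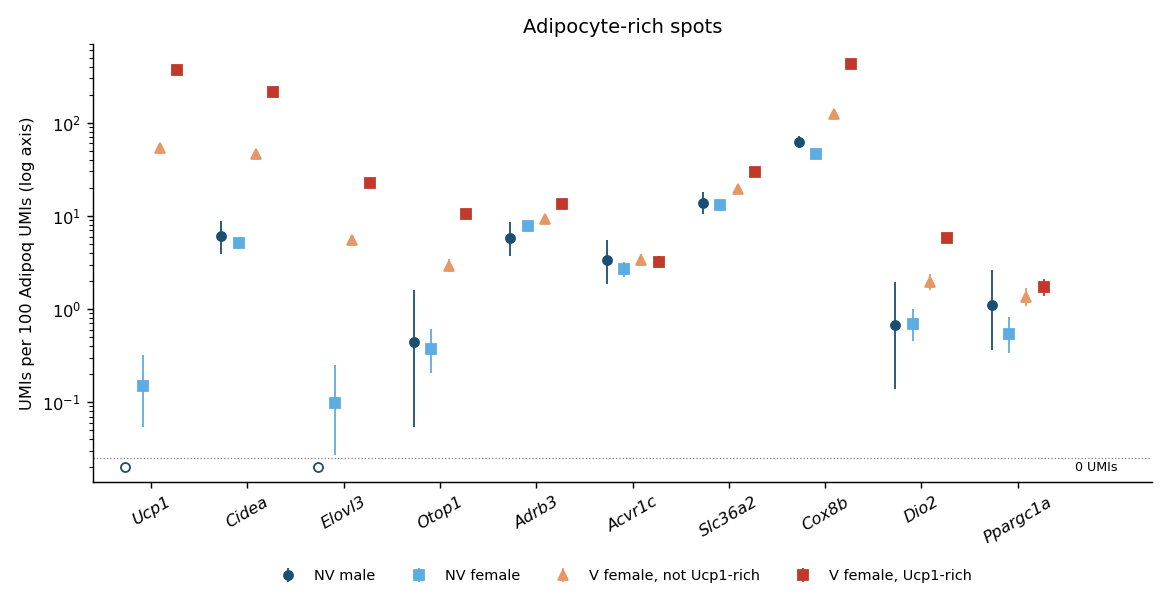
UMIs of each of the 10 genes for 100 Adipoq UMIs in adipocyte-rich spots, on a log axis with 95% counting intervals, for the NV male, the NV female and the V female divided into spots that were or were not Ucp1-rich; open symbols mark 0 UMIs. Acvr1c stays between 2.67 and 3.37 in all 4, while Ucp1, whose level divided the V female spots, goes from 0 in the NV male to 372 in the Ucp1-rich spots.

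The genes whose levels across the 2053 spots of the V female section were most like Ucp1 were taken by Pearson's correlation of log2(UMIs per 10000 of the spot + 1), over 11270 genes with at least 200 UMIs. They were Fabp4 (0.557), Thrsp (0.4997), Fasn (0.498), Cox8b (0.497), Gpd1 (0.494), Eno1 (0.480), Cidea (0.478), Cycs (0.457), Agpat2 (0.452) and Apoc1 (0.452). Fabp4 carries fatty acids in adipocytes, and Thrsp, Fasn, Gpd1 and Agpat2 belong to the making of fatty acids and triglycerides. Cox8b and Cidea were the 2 of the 10 genes in this list. All points share 1 library and the depth of their spot, so these values describe the section.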

How the data were processed

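Visium libraries of 4 mouse lung cryosections (2 V, 2 NV) were used. According to the labels and the study's methods, the authors ran Space Ranger on the 10x mouse reference for mm10 and deposited, for each spot under tissue, the UMI count of every gene. The authors' normalization in Seurat 4.0.3 is not part of these counts, and no column of another sample was present. UMIs were summed per section or spot class, all deposited spots being kept, and tested with edgeR 4.0.16 in R 4.3.3 (filterByExpr, TMM scaling, quasi-likelihood test). DESeq2 1.42.0 was an alternative. Each test was checked on simulated data. The simulated spread between sections was smaller than that of the V against NV fits, so the check does not show what those fits could find. The planned test of Ucp1-rich spots needed several sections, and since 1 had such spots, ratios per total UMIs with exact counting intervals are given in its place. With 2 mice a group, p-values of V against NV measure the spread between these sections. In the heart muscle test the section was a block. Its p-values measure how the difference between spot classes varied over the sections that had both, and not the spread in level between mice. Coordinates came from GENCODE vM21 (GRCm38) and promoters from RefSeq (GRCm38.p6). Genes and lists were chosen with earlier results of these data known. Further genes named were among the 4 of each list with the largest folds in Ucp1-rich spots, except Adrb1, Nrip1, Cox6a2, Lep, Retn, Ckmt2 and Atp2a2, which were chosen after their values were seen. One gene of a list is not reported here by name.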

Additional observations from a re-analysis of the deposited data

Results flagged for a closer look

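In 5 of the 10 genes the V over NV ratio of CPM pointed in opposite directions in the male and in the female pair of sections, each pair being 1 section against 1. For Cidea the ratio was 0.0226 in the males (2 UMIs in the V male, interval 0.00268 to 0.0846) and 15.6 in the females (13.7 to 17.7). For Cox8b it was 0.0213 in the males (0.0173 to 0.0261) and 2.11 in the females (2.04 to 2.17). Otop1 was at 0 UMIs in the V male and 8 in the NV male, a ratio of 0 with an interval up to 0.463. In the females its ratio was 9.01 (5.86 to 14.6). Dio2 was also at 0 UMIs in the V male, against 13 in the NV male, with an interval up to 0.259, and at 3.28 in the females (2.34 to 4.74). For Slc36a2 the ratio was 0.594 in the males (0.521 to 0.676) and 1.05 in the females (0.971 to 1.13), where the interval includes no difference.

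Adrb3 (0.683 in the males, 0.928 in the females), Acvr1c (0.0232 and 0.790) and Ppargc1a (0.200 and 0.945) were lower in V in both pairs. The difference between the pairs was not tested, since each pair holds 1 section per group, and sex and the tissue captured cannot be told apart: adipocyte markers summed to 89.98 CPM and heart muscle markers to 18.2 in the V male, the lowest of the 4 sections.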

How the results depend on the processing

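Limits were set by 1 section per sex and group and by 1 section with Ucp1-rich spots. V against NV in Ucp1-rich spots could not be run under any setting, and for the Ucp1-rich spots DESeq2, the filter, left-out sections and the fit without a section block were not run. In V against NV, DESeq2 called 8 genes over whole sections and 6 outside the Ucp1-rich and heart-muscle-rich spots, where edgeR called 0. Leaving out 1 section at a time gave 0 to 811 calls over whole sections and 0 to 233 outside those spots. Over whole sections the log2 fold change then ran from -7.01 to 5.31 for Cidea, -7.22 to 4.08 for Otop1, -2.13 to 1.34 for Adrb3, -6.98 to 1.17 for Acvr1c, -1.48 to 0.56 for Slc36a2, -6.06 to 1.44 for Cox8b, -7.99 to 2.71 for Dio2 and -2.56 to 0.092 for Ppargc1a. Outside those spots it ran from -6.95 to 4.60 for Cidea and from -5.01 to 1.31 for Cox8b, which was at -0.017 with Ucp1-rich spots taken from 300 CPM. Ucp1 was above 0 in the fits that kept the V female (8.79 to 11.98 over whole sections with 1 section left out). Without the V female, Ucp1 had 1, 7 and 4 UMIs in the NV male, the NV female and the V male. It then did not pass the filter on low counts, so that fit gives no value for it.

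The replicate number is also the sex, and with 2 pairs it does not pair the sections (correlation of same-numbered deviations 0.323 over 14570 genes). With the replicate block 0 genes were called, 413 over whole sections and 562 outside those spots had an unadjusted p under 0.05, and Cox8b turned to -2.23 and -1.70 and Dio2 over whole sections to -0.13, none of them called.

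For heart muscle, DESeq2 called 3521 genes and scaling to total UMIs 9449, against 5642. Scaling to total UMIs turned Cidea to -0.021, Elovl3 to -0.14, Otop1 to -0.11 and Dio2 to -0.021, and a heart sum of 20000 CPM turned Cidea to -0.068, Elovl3 to -0.25 and Dio2 to -0.26. Acvr1c turned to 0.19 without the section block, 0.025 by DESeq2 and 0.35 at a heart sum of 5000 CPM, and Slc36a2 to 0.032 without the block. With 1 section left out Acvr1c ran from -0.36 to 0.51 and Slc36a2 from -0.31 to 0.061. Cox8b and Ppargc1a stayed higher in every setting, and Cox8b was not called in 1, without the section block. By Spearman's correlation 5 of the 10 genes most like Ucp1 were the same. With Ucp1-rich spots taken from 300 CPM 7 of the 9 genes were at least 2-fold higher than in the rest, where 377 of 13767 genes were. From 3000 CPM it was also 7, where 716 of 13767 genes were, and at a heart sum of 20000 CPM 8, where 648 of 13937 were. In the main setting it was 9, where 698 of 13767 genes were. The cause of these changes was not tested.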
